A study of Monopterus albus with 3 samples.

Results

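The spliced loci with the highest read coverage in *Monopterus* gonads are described here. They were chosen by coverage, the mean number of reads that Cufflinks estimates over each base of a transcript model. For each gene identifier (a locus) the transcript with the longest coding sequence (CDS) stood for the locus, loci with at least 2 coding exons and a CDS of at least 300 bp were kept, and the 300 kept loci with the highest coverage, summed over the transcripts of the locus, are the members. They are 300 of 13305 kept loci (2.25%) and of 63334 loci in all. The models were assembled from poly(A) RNA of 3 libraries, 1 each from ovary, ovotestis and testis, labelled female, intersex (hermaphrodite) and male. *Monopterus albus*, the swamp eel, passes through these gonad stages in the course of its life. The sources used here state neither age nor strain nor the number of fish behind a library. The models carry 1 coverage value per transcript for the series as a whole. A locus with high coverage in 1 gonad and a locus with moderate coverage in all of them therefore cannot be told apart, nor can more cells of a type be told from more RNA per cell. Gene names could not be attached, because 0 identifiers matched the RefSeq table for this species with its 24079 genes, and members are therefore given by rank and by position on the authors' scaffolds. The named cell types of the gonad could not be checked against markers for the same reason.

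A protein-coding gene is transcribed with its introns, which are spliced out so that the coding exons join into an open reading frame (ORF). Exons that are recognised as units by the splicing machinery are usually short, while intron length varies widely between genes. One gene can give several transcripts that differ in the exons they join. In animals, housekeeping proteins that are made in bulk, such as those of the ribosome, are often encoded by short reading frames in compact genes, and gonads also express large amounts of germ cell transcripts. No member could be assigned to such a class here.

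The 12 most covered loci were short ORFs, with a CDS between 339 and 774 bp, in 3 to 7 coding exons. Rank 1 lay on scaffold 293 from 66611 to 68597 on the minus strand, with a coverage of 49203 in 4 transcripts. Only 5.60% of that coverage belonged to the transcript with the longest ORF (774 bp, 7 coding exons). The transcript with the highest coverage (19852) had an ORF of 252 bp. Rank 2 was a single transcript with a coverage of 32395.5 on scaffold 621 (6256 to 8391, minus strand). Its 531 bp were divided into coding exons of 102, 147, 126 and 156 bp. Rank 3 (scaffold 77, 17285 to 21262, minus strand) had a coverage of 29706 in 3 transcripts, and 1 intron of 3274 bp made up most of its span of 3978 bp. Rank 4, with a coverage of 29516, was the shortest of the 12, with 339 bp of CDS in 4 coding exons within 1643 bp of scaffold 265 (515416 to 517058, plus strand). These 4 loci thus include both single-transcript loci and loci whose coverage came mainly from transcripts with a shorter ORF.

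**Figure D1:**
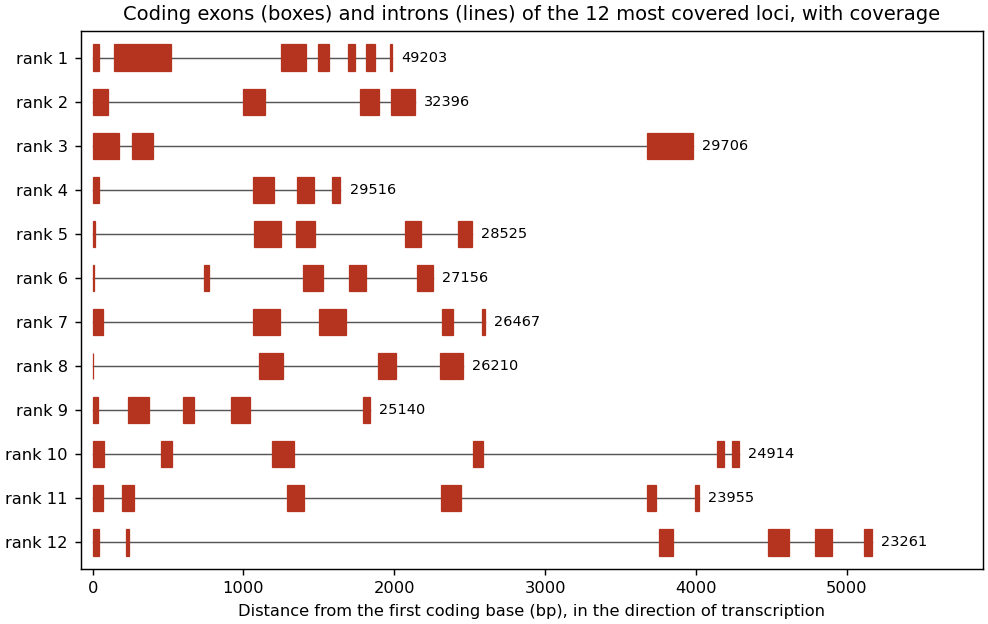
Structures of the 12 most covered loci, drawn to scale in the direction of transcription, with coding exons as boxes, introns as lines, the distance from the first coding base in bp on the x axis and the coverage of each locus at its right end. The longest span is the 5169 bp of rank 12, and the coverages run between 49203 and 23261.

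The next loci in order had like structures. Rank 5 (scaffold 134, 2618737 to 2621250, minus strand) had a coverage of 28525 and 5 coding exons. Rank 7 (scaffold 38, 228092 to 230689, minus strand) had a coverage of 26467, also in 5 coding exons, and 3 of its 4 transcripts had an ORF of 213 bp. Rank 8 (scaffold 110, 396644 to 399096, minus strand) reached 26210, with a first coding segment of 4 bp followed by an intron of 1096 bp. Ranks 5, 6, 7 and 8 began with coding segments of 18, 6, 70 and 4 bp, against a median of 77 bp over all members. Their first introns measured 730 to 1096 bp. Those of ranks 2 and 4 measured 893 and 1027 bp, and those of ranks 1, 3, 9, 10, 11 and 12 only 89 to 378 bp. Rank 9 (scaffold 85, 99981 to 101817, minus strand) had a coverage of 25140.5 and introns no longer than 749 bp. Rank 10 (scaffold 431, 100649 to 104933, plus strand) and rank 11 (scaffold 99, 3144539 to 3148558, plus strand) each had 6 coding exons, with coverages of 24914 and 23955. Of the coverage at rank 11, 87.6% belonged to a transcript with an ORF of 150 bp.

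Ranks 6 and 12 occupied the same small scaffold. Rank 6 lay on the plus strand of scaffold 1061 from 2685 to 4940 (coverage 27156) and rank 12 on the minus strand from 605 to 5773 (coverage 23261), so that rank 6 fell within the coding span of rank 12. The last annotated base of this scaffold was 5773, and these were its only kept loci (2). Both loci had a coding exon of 135 bp followed by one of 112 bp, as did rank 4, and in ranks 4 and 12 a last segment of 53 bp followed. An exon of 135 bp followed by one of 112 bp was found at 8 kept loci. The other 5 had between 9 and 40 coding exons, with coverages between 18.6 and 621. Whether ranks 4, 6 and 12 are near-identical copies was not tested, for lack of their sequence, and the coverage of each is uncertain to that extent. This exon pattern was noticed after the values had been seen.

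Coverage of the members ranged from 1774 to 49203, with a median of 2683 (quartiles 2029 and 4522), against a median of 139.8 (21.8 and 378) over all kept loci. The median of the members was thus 19.2 times that of the kept loci, and rank 1 was 27.7 times rank 300. Since coverage chose the members, these values are descriptive only. The members made up 31.5% of the summed coverage of all kept loci. When the coverage of each representative transcript alone was multiplied by its CDS, the members made up 13.9%. That product leaves out the other transcripts of a locus, so it differs from the first share in more than the weighting by CDS. Coverage divided by FPKM differed widely between the 171 groups into which the identifiers fall, and whether coverage is comparable between these groups was not tested. Ranking by FPKM gave 214 of the same 300 loci. No gap separated them from the loci that follow. The last member, rank 300 (scaffold 372, 106606 to 504517), had a coverage of 1774, and the member before it (scaffold 36, 77518 to 83951) of 1775. Just outside lay rank 301 (scaffold 146, 919285 to 924586) at 1768, followed by a locus on scaffold 289 (480424 to 485983), also at 1768. The first 100 members had a median coverage of 6027, the next 100 of 2683 and the last 100 of 1952, so most of the range lay among the highest ranks.

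**Figure D2:**
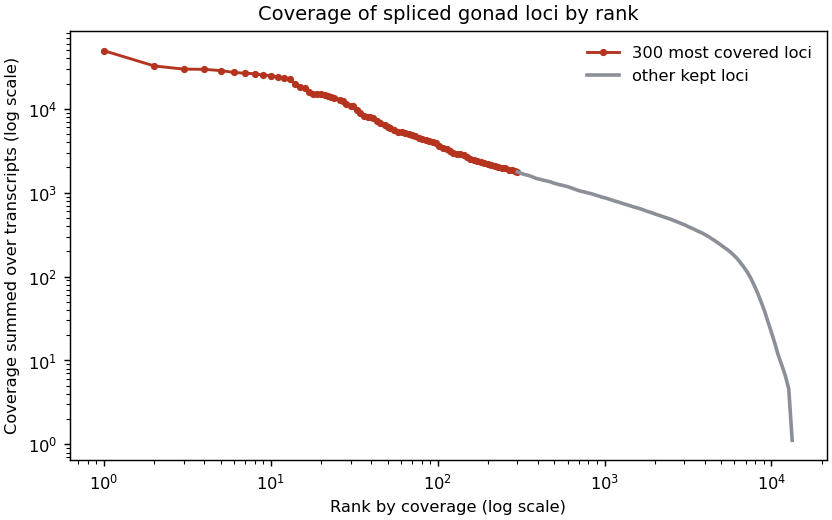
Coverage of kept loci, summed over their transcripts, against rank at selected ranks, both on log scales, with the 300 most covered loci as red points joined by a line and the other kept loci as a gray line. The curve passes from 1774 at rank 300 to 1768 at rank 301 without a step.

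The members had shorter coding sequences than the kept loci as a whole, cut into shorter exons. The median CDS was 625.5 bp in the members (quartiles 419 and 1077, 95% interval of the median 560 to 669) and 1146 bp in all kept loci (quartiles 657 and 1932, interval 1128 to 1164). A member had a median of 5 coding exons (interval 5 to 6), against 7 (7 to 8) in all kept loci. Relative to their length the members were divided more finely, with 8.67 coding exons per kb of CDS (8.31 to 8.92), against 6.97 (6.92 to 7.03). The median exon length within a locus was 112.5 bp in the members (108 to 117) and 129.5 bp in all kept loci (129 to 130.5). These intervals are order-statistic intervals that cover counting error over loci, not error between libraries, and no test was made since there are no replicates. The members are themselves part of the kept loci. Within the members, the first 100 ranks had the shortest CDS (a median of 552 bp), against 667.5 bp at ranks 101 to 200 and 643.5 bp at ranks 201 to 300, and their coding span (2632, 3492 and 4152 bp in the same order) increased with rank. The CDS was a whole multiple of 3 at 297 members (99.0%) and at 99.7% of all kept loci.

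Exon positions contributed unequally to this. The first coding segment had a median of 77 bp in the members, against 106 bp in all kept loci, and the last one of 84 bp, against 128 bp. Inner coding exons, which are bounded by splice sites at both ends, measured 117 bp (interval 114 to 121) in the members and 124 bp (123 to 124) in all kept loci. The first and last segments are the parts of an exon that remained after the models had been trimmed to the ORF, so they are not full exons. Of the 1335 inner exons of the members, 39.0% had a length divisible by 3 (exact binomial 95% interval 36.3 to 41.6), against 40.4% (40.1 to 40.7) of those of all kept loci, a difference that lay inside the interval of the members. Inner exons of at most 30 bp made up 0.824% in the members (0.412 to 1.47) and 0.639% in all kept loci (0.591 to 0.690).

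**Figure D3:**
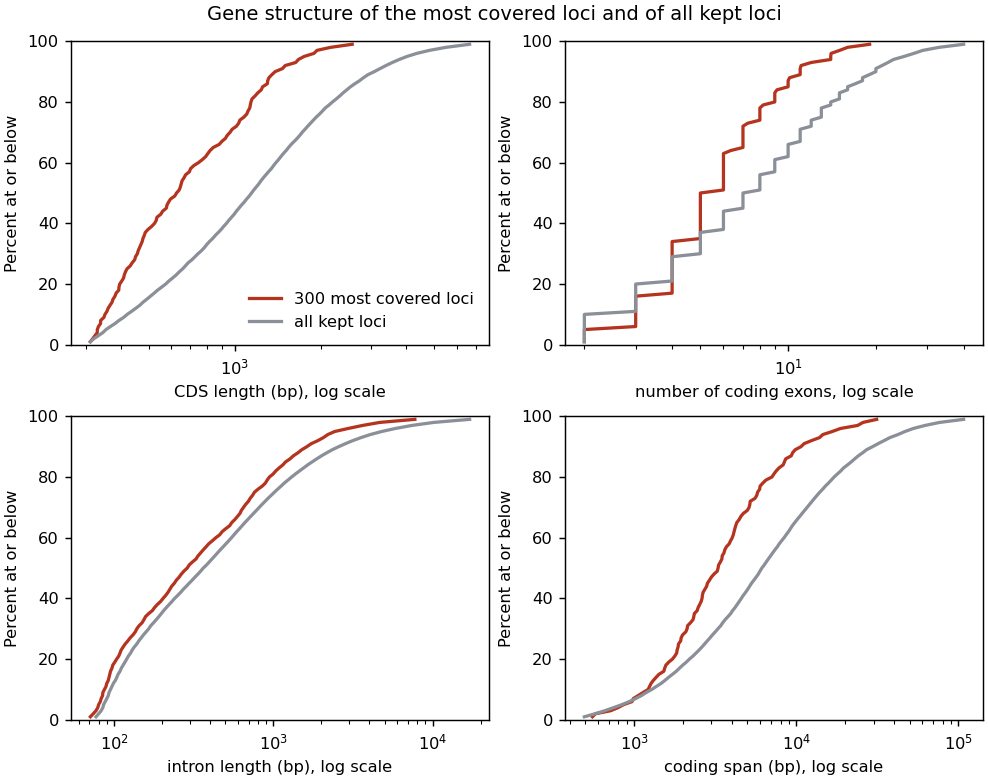
Cumulative percent of loci (introns in the lower left panel) at or below each CDS length, number of coding exons, intron length and coding span, drawn at the 1st to 99th percentiles with log-scaled x axes, for the 300 most covered loci in red and all 13305 kept loci in gray. The curves lie farthest apart for CDS length (medians 625.5 and 1146 bp) and coding span (3293.5 and 6135 bp), and closest for intron length (288 and 363 bp over all introns).

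Over all members together, the introns included more very short and fewer long ones than in all kept loci. Over all 1635 introns of the members the median was 288 bp (262 to 316), against 363 bp (359 to 368) over the 114695 introns of all kept loci. Introns of at most 100 bp made up 18.8% of those in the members (17.0 to 20.8) and 12.5% in all kept loci (12.3 to 12.7). Introns of at least 1000 bp made up 19.0% in the members (17.1 to 20.9), against 25.3% (25.1 to 25.6). Only 13 introns of the members, or 0.795%, reached 10000 bp, against 2.04% in all kept loci. At ranks 301 to 600, introns of at least 1000 bp made up 18.9% (17.3 to 20.6) and those of at least 10000 bp 0.543%. Introns of at most 100 bp made up 16.0% there (14.5 to 17.6). The lower share of long introns is thus not particular to the members. Introns of 1 locus are not independent, so these intervals are too narrow. When the median intron of each locus was taken instead, the values were 356.5 bp in the members (323 to 417.5) and 406.5 bp in all kept loci (398.5 to 414), and the intervals overlapped. The first intron was the longer one in both sets, with a median of 498 bp in the members (378 to 630) and 657 bp in all kept loci (638 to 677). Summed over a locus, introns measured 2486 bp in the members (2098 to 2891) and 4720 bp in all kept loci (4573 to 4844). In proportion to the CDS this came to 3.68 times (3.20 to 4.15) in the members and 3.75 times (3.67 to 3.83) in all kept loci.

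Comparison within classes of CDS length changed the picture for introns. Of the members, 145 had a CDS of 300 bp to under 600 bp, 56 of 600 to under 900 bp, 74 of 900 to under 1500 bp and 25 of 1500 bp or more. In the shortest class, the members had more coding exons than the kept loci of that class (a median of 4 against 3) and a larger summed intron length (2016 bp, interval 1560 to 2444, against 1296 bp, 1211 to 1384). Very short introns were no more frequent in these members, with 11.8% of introns at most 100 bp long, against 12.8% in the kept loci, whereas in the 3 longer classes they made up 20.7%, 20.0% and 25.7% in the members with rising CDS, against 12.6%, 12.8% and 12.4%. The first intron of the shortest members measured 630 bp (438 to 759), against 456 bp (414 to 484), with overlapping intervals. In the class of 600 to under 900 bp, the summed introns measured 2625.5 bp in the members and 2771.5 bp in the kept loci, again with overlap. In the class of 900 to under 1500 bp they measured 3281 bp (2446 to 4803) in the members and 4573 bp (4379 to 4794) in the kept loci, and the intervals overlapped here as well. The first intron differed more in this class, at 295.5 bp in the members (212 to 603) and 710 bp in the kept loci (663 to 752). From 1500 bp on, the summed introns were 5701 bp (2406 to 7801) in the members and 10064 bp (9706 to 10438) in the kept loci. The sign of the difference in summed introns therefore changed between the classes. Members had more intron sequence than the kept loci of their class in the shortest class, and less in the longest. The longest class has no upper limit, and its longest CDS was 4056 bp in the members and 15363 bp in the kept loci. Members and kept loci are therefore not matched in CDS there. The kept loci of the shortest class had a low median coverage of 38.0. The number of exons per kb was higher in the members in each of the 4 classes, at 9.80, 8.20, 7.68 and 7.20 per kb with rising CDS, against 7.94, 7.34, 7.18 and 6.45 per kb in the kept loci. The intervals overlapped only in the class of 900 to under 1500 bp.

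When all kept loci were divided into 10 classes of equal size by coverage, some features changed steadily and others did not. The number of coding exons per kb increased from class to class, with 5.85 in the lowest, 6.67 in the fifth and 8.28 in the highest, next to 8.67 in the members. The median exon length within a locus fell in parallel, with 156.5 bp in the lowest class and 115 bp in the highest, and stood at 112.5 bp in the members. The CDS followed no such course. It was short in the lowest class (691.5 bp), longest in the seventh (1560 bp) and shorter again in the highest (915 bp), so that the members, at 625.5 bp, resembled the lowest class in length. They differed from it in exon number, since the lowest class had 5.85 coding exons per kb. The share of adjacent kept loci on the same strand was 65.6% in the lowest class and 53.8% in the highest. The 300 loci that follow the members, at ranks 301 to 600, had a median CDS of 966 bp and 8.28 coding exons per kb.

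**Figure D4:**
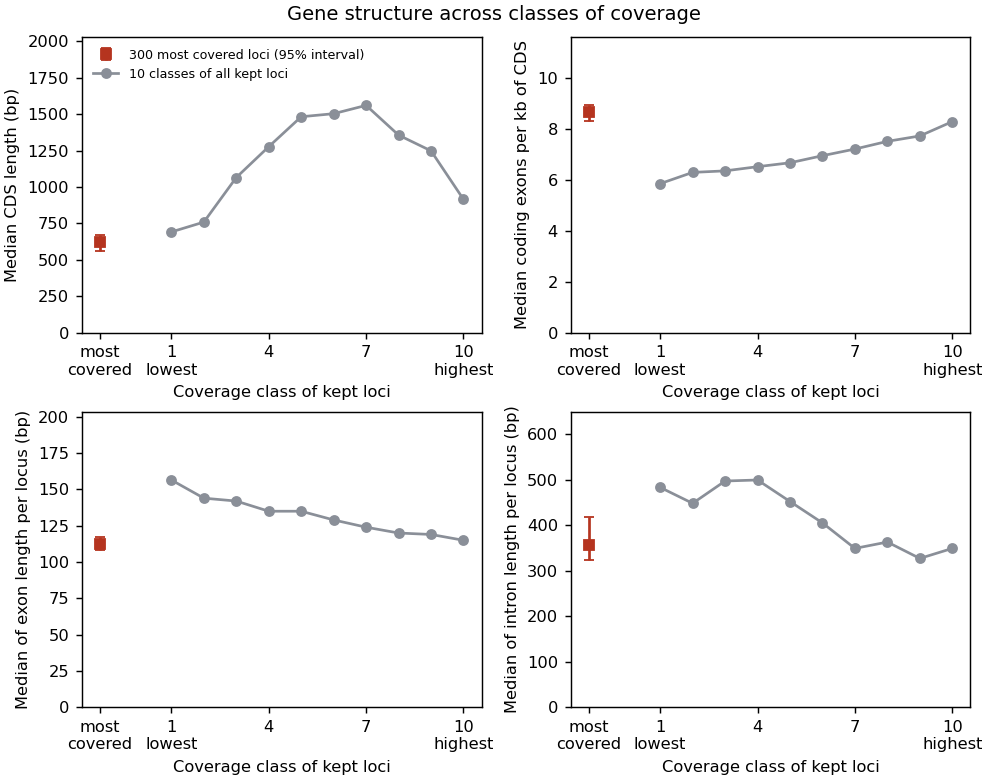
Median CDS length, coding exons per kb of CDS, median exon length and median intron length per locus for the 300 most covered loci (red squares, bars for the 95% order-statistic interval) and for all kept loci divided by coverage into 10 classes of equal size (gray points). Exons per kb increase with coverage to 8.28 in the highest class, whereas CDS length peaks at 1560 bp in the seventh class.

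Members often had several transcripts, which the choice of members favors because coverage was summed over them. At least 2 transcripts were present at 201 members (67.0%, 61.4 to 72.3), against 48.9% of all kept loci. At ranks 301 to 600 the share was 63.7% (57.9 to 69.1), with an overlapping interval. In detail, 99 members had 1 transcript, 121 had 2, 62 had 3 and 18 had 4. When loci were ranked by the coverage of the representative transcript alone, the share of members with several transcripts was 38.7%, below the 48.9% of kept loci, so the direction of this difference depends on the summing. The CDS was short with or without the summing. Ranked by the representative transcript alone, members had a median CDS of 627 bp, against 1146 bp in kept loci. Among loci with 1 transcript only, with members chosen anew, it was 652.5 bp (597 to 741), against 939 bp. The 99 members with 1 transcript that passed the limit on summed coverage had a shorter median CDS of 483 bp.

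The transcript with the longest ORF was often not the most covered one. At the 201 members with several transcripts, the representative transcript had the highest coverage at 93 (46.3%, 39.2 to 53.4), against 62.1% (60.9 to 63.3) of kept loci with several transcripts. By rank, this held for 31.0% of such members at ranks 1 to 100, 63.3% at ranks 101 to 200 and 47.1% at ranks 201 to 300. Among loci with several transcripts at ranks 301 to 600 it held for 59.2%. The share of the representative transcript in the locus coverage had a median of 42.9% (38.3 to 49.3), against 52.3% (51.6 to 53.1). The coverage that is divided here also chose the members, so these values are descriptive only. The transcript with the highest coverage took a like share in both sets, 60.8% (57.4 to 62.9) in the members and 61.4% (60.9 to 61.8) in all kept loci. At 51 members (17.0%) the most covered transcript had an ORF under 300 bp, and 29 of these were among the first 100 ranks. Over all kept loci this share was 6.04%. An example is rank 95 (scaffold 6, 793304 to 804239, minus strand), where a transcript with an ORF of 60 bp had a coverage of 2649 and 2 transcripts with an ORF of 3174 bp had 955 and 308. Counting only transcripts with an ORF of at least 300 bp left 251 of the 300 members in place, with a median CDS of 678 bp.

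A few members were large. The longest CDS, 4056 bp in 30 coding exons, belonged to rank 105 on scaffold 50 (1889527 to 1906581, plus strand), with a coverage of 3551. Of this coverage, 50.3% lay in the transcript with the longest ORF. Rank 95 followed with 3174 bp in 25 coding exons and rank 237 (scaffold 292, 807776 to 821591, plus strand) with 2889 bp in 23. At rank 237 the transcript with the longest ORF carried 10.8% of a coverage of 2007. A further 20.6% and 8.36% lay in transcripts with ORFs of 2796 and 2775 bp, and 60.2% in a transcript with an ORF of 348 bp. Introns were largest at rank 300, where 1 intron of 394697 bp separated a last segment of 39 bp from the rest of the CDS. That segment fell within the coding span of rank 132, on the opposite strand. Rank 39 (scaffold 180, 662534 to 701968, minus strand) had a first segment of 11 bp and a first intron of 38901 bp, and rank 257 (scaffold 18, 3372959 to 3408331, plus strand) had 34908 bp of introns in a CDS of 465 bp. In ranks 300 and 39 the span thus depends on a single short segment. At the other end, rank 60 (scaffold 26, 4122752 to 4124451, minus strand) had 1 intron of 77 bp in a CDS of 1623 bp. Rank 93 had 1 intron of 88 bp on scaffold 5618, where its span of 424 bp ended at the last annotated base (673), and rank 128 (scaffold 511, 103457 to 103956, plus strand) had 1 intron of 143 bp.

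Members were spread over the assembly. They lay on 186 of the 992 scaffolds that held a kept locus, and 127 of these scaffolds held 1 member each. Scaffold 6 had the most, 8 of its 185 kept loci (4.32%), followed by scaffold 34 with 7 of 121 (5.79%). Scaffolds 13, 16 and 18 had 6 members each, or 5.04%, 6.19% and 2.79% of their kept loci. Members made up 2.25% of all kept loci. Scaffolds with annotation beyond 1 Mb held 203 members (67.7%, 62.1 to 72.9), against 73.2% (72.5 to 74.0) of all kept loci. Scaffolds under 100 kb held 23 members (7.67%, 4.92 to 11.3), against 4.36% (4.02 to 4.72). Neither difference was present in the CDS class of 300 to under 600 bp, to which 18 of these 23 members belong. There, scaffolds under 100 kb held 12.4% of the members and 13.0% of the kept loci, and scaffolds beyond 1 Mb held 64.8% and 63.4%. Among the small ones were those of ranks 2, 6 and 12. The plus strand carried 149 members (49.7%) and 50.9% of all kept loci.

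The nearest adjacent kept locus lay somewhat farther from a member than from kept loci in general. Adjacent loci are those next in order of start on the scaffold. A long locus that starts farther back and overlaps a given locus was therefore not counted. The median distance was 9089 bp in the 289 members with a neighbor on their scaffold (7197 to 11622), against 6408 bp (6195 to 6605). Adjacent kept loci lay on the same strand as the member in 270 of 547 cases (49.4%, 45.1 to 53.6), against 58.5% (57.9 to 59.2) of such cases over all kept loci. At ranks 301 to 600 this share was 52.4% (48.2 to 56.7). Its interval overlapped that of the members, so the low share is not particular to them. With a minimum CDS of 150 or 600 bp the share was 54.9% or 54.6% for members, against 58.4% or 57.7% for kept loci, which lay inside the intervals of the members. At the minimum of 300 bp, on the 5′ side the share was 51.3% for members and 58.5% for kept loci, and on the 3′ side it was 47.4% and 58.6%. Convergent neighbors made up 25.8% of the cases for members and 20.7% for all kept loci, and divergent ones 24.9% and 20.8%. At ranks 301 to 600 each of these orientations made up 23.8%. Where the neighbor was on the same strand, the median gap was 18593 bp for members, against 12769.5 bp. Convergent pairs (16996 against 15461 bp) and divergent pairs (19045.5 against 17399 bp) differed less in their gaps. The loci adjacent to members had a median coverage of 206 (168 to 239), against 144 (140 to 148) for loci adjacent to any kept locus. Some of these adjacent loci are members themselves, and coverage chose the members, so this comparison is descriptive only.

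Adjacent members formed 18 pairs, which took in 35 of the 300 members (11.7%). Of all kept loci, 4.07% had a member as an adjacent kept locus. At ranks 301 to 600 this share was 7.67% (4.92 to 11.3), and its interval overlapped that of the members (8.26 to 15.9). Coverage chose the members, so these shares are descriptive only. By orientation, 8 of the pairs were on the same strand, 6 divergent and 4 convergent. The coding spans overlapped in 3 pairs, all on opposite strands, namely ranks 6 and 12, ranks 112 and 234 on scaffold 16, and ranks 132 and 300 on scaffold 372. On scaffold 16, rank 112 (354278 to 356855, plus strand, coverage 3351) lay inside the 4476-bp intron of rank 234 (352357 to 357531, minus strand, coverage 2014). Rank 6 likewise lay inside the 3508-bp intron of rank 12. Coding exons overlapped only in ranks 132 and 300, where the 39-bp last segment of rank 300 fell within a coding exon of rank 132. The models give coding segments only, so overlap of untranslated parts cannot be seen. The protocol in the labels names no step that marks the strand of the RNA. Reads that lie within exons overlapping on opposite strands therefore cannot be told apart. The closest pair without overlap was ranks 298 and 68 on scaffold 9 (135989 to 140071 and 140463 to 143203, both on the plus strand). These had 10 coding exons each, lay 391 bp apart and had no exon length in common, with coverages of 1776 and 4897.

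Several members repeated the exon lengths of another member. The pairs were picked out by their exon lengths, after the values had been seen. The 4 coding exons of rank 2 (102, 147, 126 and 156 bp) had the same lengths in rank 99, 19495 bp away on the same strand of scaffold 621 (27887 to 28931). The introns between them differed, with 893, 630 and 82 bp in rank 2 and 288, 117 and 109 bp in rank 99. Coverage differed as well, at 32395.5 in rank 2 and 3858 in rank 99. Ranks 16 and 149 lay on scaffolds 103 (446615 to 452629) and 172 (2834235 to 2838153). They shared the lengths of their first 6 coding segments, 87.4% of the CDS of rank 16 and 78.6% of that of rank 149, with 0 of 5 introns of equal length. Ranks 191 (scaffold 81, 754470 to 763065) and 229 (scaffold 34, 952627 to 957514) shared their first 7 coding segments, also with no intron of equal length (0 of 6). Equal exons with unequal introns were thus found both within 1 scaffold and between scaffolds.

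In 2 other pairs the introns were repeated too. Pairs were sought only among adjacent members and among members with at least 3 inner exons. Rank 179 (scaffold 13, 1543257 to 1547795, minus strand) and rank 188 (scaffold 61, 237692 to 240814, minus strand) had 9 coding exons in a row of equal length, among them one of 1111 bp, and the 8 introns between them were equal to the base. These exons made up 1833 bp, or 94.0% of the CDS of rank 188. Their coverages were alike, at 2369 and 2295. Ranks 132 and 300 on opposite strands of scaffold 372 shared 3 coding exons in a row (159, 237 and 141 bp) and both introns between them. The introns on either side of this run (76 and 74 bp) and the first 2 coding segments (27 and 111 bp) were equal as well. The third coding exon measured 276 bp in rank 132 and 279 bp in rank 300. Of the 197 members with at least 3 inner exons, 4 (2.03%) shared 3 inner exons and the 2 introns between them with another kept locus, against 60 of 9372 kept loci (0.640%). Without regard to introns, 52 of the 197 members (26.4%) shared 3 inner exon lengths in a row with another kept locus, against 39.2% of the kept loci. Loci with equal numbers of inner exons were not compared. Ranks 246, 251 and 253 (scaffolds 442, 31 and 135) had too few exons for this search. Each had a CDS of 339 bp in 3 coding exons, with introns that summed to 649 bp. Their coverages were 1978, 1951 and 1949, and whether they are copies was not tested. The sources used here do not state how reads were divided between copies. This leaves the coverage of each locus in the pairs, and of ranks 246, 251 and 253, uncertain.

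**Figure D5:**
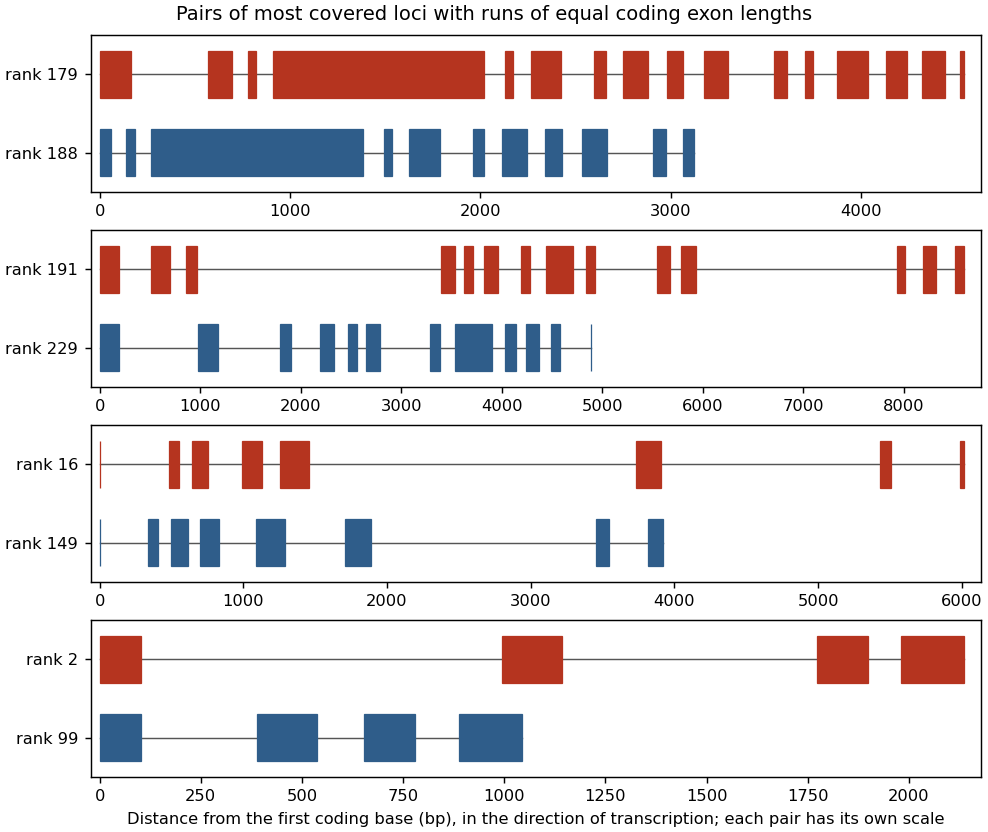
Coding exons (boxes) and introns (lines) of 4 pairs of the most covered loci with runs of equal exon length, aligned at the first coding base, the higher rank of each pair in red and the lower in blue, with the distance in bp on the x axis and a separate scale for each pair. Ranks 179 and 188 share 9 coding exons and the 8 introns between them, while ranks 2 and 99 share 4 coding exons and none of their 3 introns.

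Loci with a single coding segment lay inside fewer of the members than of all kept loci. At 17 members (5.67%, 3.34 to 8.92) such a locus lay within the coding span, against 17.9% (17.2 to 18.5) of all kept loci. The share was alike at ranks 301 to 600 (6.67%, 4.12 to 10.1), so it is not particular to the members. The spans of the members are shorter, and per 100 kb of span there were 1.52 such loci in the members and 2.39 in all kept loci. The summed span of the members includes the 397912 bp of rank 300, which depend on a single short segment. Outside the span, 83 members (27.7%, 22.7 to 33.1) had a single-segment locus within 5 kb on the 5′ side and 103 (34.3%) within 5 kb on the 3′ side. For all kept loci these shares were 25.6% and 38.4%, and both lay inside the intervals of the members.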

How the data were processed

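The authors aligned reads of the 3 gonad libraries to their own scaffolds and built transcript models from the alignments. Cufflinks 1.1.0, Bowtie 0.12.7 and TopHat 1.3.3 are listed in the submitters' processing notes. The paper names a later version of Cufflinks for the assembly of transcripts, and which version gave the deposited values was not checked. The authors then chose ORFs with a hidden Markov model. The deposited models give coding segments, 1 FPKM value and 1 coverage value per transcript for the series as a whole, and a score that was not used. The sources used here do not state the number of reads of a library. Median coverage divided by FPKM differed up to 383-fold between the 171 identifier groups, which does not show which of them is comparable between groups. Loci were ranked by coverage, and by FPKM as an alternative. Ties for the longest CDS were decided by coverage. Medians have order-statistic and shares exact binomial 95% intervals, for counting error over loci only. Computation used Python 3.11.15, numpy 2.4.6, scipy 1.17.1 and matplotlib 3.10.9, and reading of structures was checked on simulated models. In total 13 alternatives were run. Members, measures and the rule for named loci (the 12 most covered, the 4 around the limit, 3 extremes per feature, the 4 closest pairs of members, the scaffolds richest in members) were chosen with earlier results of these data known. Marker lists could not be applied, and no sequence was used.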

Additional observations from a re-analysis of the deposited data

How the results depend on the processing

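The 11 measures were recomputed under 13 alternatives, which gave 142 values. Of these, 6 changed direction relative to kept loci, whether inside or outside the 95% interval of the member value. Among the rest, 101 lay inside that interval and 35 outside it. A value equal to that of kept loci was not counted as a change of direction. All results rest on 1 table without replicates, and depth is known only as coverage. No paired analysis was possible because each gonad type has 1 library and the values are not per library. Causes were not tested.

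Values of the kept loci under the same setting follow each member value. Within a CDS of 300 to 900 bp (201 members), the direction changed for coding exons (5 against 4), first intron (602 against 510 bp), summed introns (2049 against 1894 bp) and span (2624 against 2499 bp), while CDS was 471 against 558 bp, exon length 106 against 126 bp and intron length 423.5 against 443 bp. The share with several transcripts fell below that of kept loci when loci were ranked by the representative transcript (38.7% against 48.9%) or the highest transcript (46.0% against 48.9%). It was 61.0% against 45.4% with the most covered transcript as representative. Summing only transcripts with an ORF of at least 300 bp was an alternative chosen after seeing the data. It gave a share of 51.7% against 38.4%, with a CDS of 678 against 1146 bp.

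With the 100 most covered loci, CDS was 552 against 1146 bp, summed introns 1999.5 against 4720 bp, span 2632 against 6135 bp and the share with a member as neighbor 6% against 1.32%. With 600 loci, CDS was 791.5, summed introns 3025.5 and span 3922 bp, against the same kept values. The first intron was 580.5 bp (469 to 657) against 657 bp, so that the interval reached the kept value. A minimum CDS of 150 bp gave a CDS of 361.5 against 1008 bp, 4 against 6 coding exons, an exon length of 93.5 against 126 bp, an intron length of 320.75 against 398 bp, a first intron of 318.5 against 608 bp, summed introns of 1225 against 3955 bp, a span of 1867.5 against 5278 bp and a member as neighbor at 7% against 2.91%. Several transcripts (46.0% against 45.7%) and neighbors on the same strand (54.9% against 58.4%) then differed by less than the interval of the members. A minimum of 600 bp gave a CDS of 1110 against 1419 bp, 8 against 9 coding exons, an exon length of 121.25 against 130.5 bp, an intron length of 291.25 against 403 bp, summed introns of 3738 against 6068.5 bp, a span of 4912 against 7841.5 bp and several transcripts at 74.3% against 53.7%. Neighbors on the same strand (54.6% against 57.7%) again differed by less than the interval. On scaffolds of at least 1 Mb, CDS was 736.5 against 1212 bp and span 3740.5 against 6535 bp. The first intron was 600 bp (464 to 709) against 688 bp, with the kept value inside the interval of the members. Among loci with 1 transcript, the number of coding exons no longer differed (6 against 6), and the first intron was 513.5 against 568.5 bp. Intron length was 317.5 against 387 bp and the distance to the nearest kept locus 17019 against 13669 bp. Neighbors on the same strand made up 52.7% (48.2 to 57.1) against 56.5%. For the first intron, the distance and the strand, the kept value lay inside the interval of the members. Ranking by FPKM kept 214 of the 300 members and moved no measure outside its interval. The first intron was then 581 bp (436 to 663) against 657 bp, so that the kept value lay inside the interval of the members.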
